A study of Mus musculus with 24 samples.

Results

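The epithelium of the Müllerian duct (MDE) was compared with the adjoining mesenchyme (MDM) in wild-type female mouse embryos at embryonic day 14.5 (E14.5). The members were the 6 libraries whose titles gave this genotype and stage, 1 of each region for each of 3 embryos, out of 24 libraries in all. The whole data set held 8 groups of 3 libraries, for the 2 regions, 2 genotypes (wild-type, Wnt7a-null) and 2 stages (E13.5, E14.5), from 12 embryos. Regions were drawn by laminin staining at the level where the ducts meet at the midline, on paraffin sections of all embryos placed on 1 slide, and were read by GeoMx Digital Spatial Profiling, in which ultraviolet light releases barcodes from DNA probes bound to RNA inside the outlined area. The labels gave neither the Wnt7a allele nor the strain. An embryo is a biological replicate per the design text, so each SD given here is between embryos, with 1 section and 1 captured area of each region per embryo.

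The Müllerian ducts are the tubes from which the female reproductive tract forms. Each consists of an epithelial tube in a sleeve of mesenchyme, and the layers signal to each other. Wnt7a encodes a secreted Wnt ligand made by the epithelium that acts on the mesenchyme, and loss of the gene disturbs the patterning of the tract. Per the design text, E13.5 precedes fusion of the left and right ducts, and by E14.5 they touch at the midline and their basement membrane has started to break.

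The values were counts per probe for 20175 probes, each known here only by its RTS identifier. Of these identifiers 0 were found in the gene table used here, so results are given per identifier, gene names were not used here, and the labelled tissues and the loss of Wnt7a were not checked against marker genes. No 2 of the 6 libraries were identical.

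Depth differed strongly between the regions. The MDE libraries held 175461, 298133 and 243190 counts for embryos 1, 2 and 3, and the MDM libraries 1944958, 3183134 and 3625081. The MDM total was 11.1, 10.7 and 14.9 times that of the same embryo's MDE. An MDE library had 2.07 to 2.21 aligned reads per count and an MDM library 23.3 to 26.8, so the MDM barcodes had been read many more times each. Median counts per probe were 6 to 11 in MDE and 68 to 130 in MDM, and counting error therefore lay mainly on the MDE side. The negative control probes of the panel were not identified here. Background was taken instead as the mean of the 5044 probes dimmest over the 6 libraries (25% of the panel), on which every multiple of background rests. Libraries of other embryos were set against the same probes, which need not be the dimmest there. Background was 22.2 ± 1.62 CPM (mean ± SD, n = 3) in MDE and 25.6 ± 0.285 in MDM. CPM are counts relative to the library total, scaled by TMM, which sets libraries against each other on the assumption that most probes do not differ.

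Epithelium and mesenchyme differed at 567 of 20174 tested probes (2.81%), of which 395 were higher in MDE (1.96% of those tested) and 172 higher in MDM (0.853%). These had an adjusted p under 0.05 in edgeR's quasi-likelihood test with the embryo as a block and Benjamini-Hochberg adjustment over all probes tested, and 2188 probes had an unadjusted p under 0.05. Of the 567, 257 also differed by more than 2-fold (1.27% of those tested), 133 of them higher in MDE and 124 higher in MDM. More than 4-fold differences were found at 12 probes higher in MDE and 8 higher in MDM. Over all tested probes the median log2 difference (MDE minus MDM) was 0.01, with quartiles at -0.23 and 0.23.

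**Figure D1:**
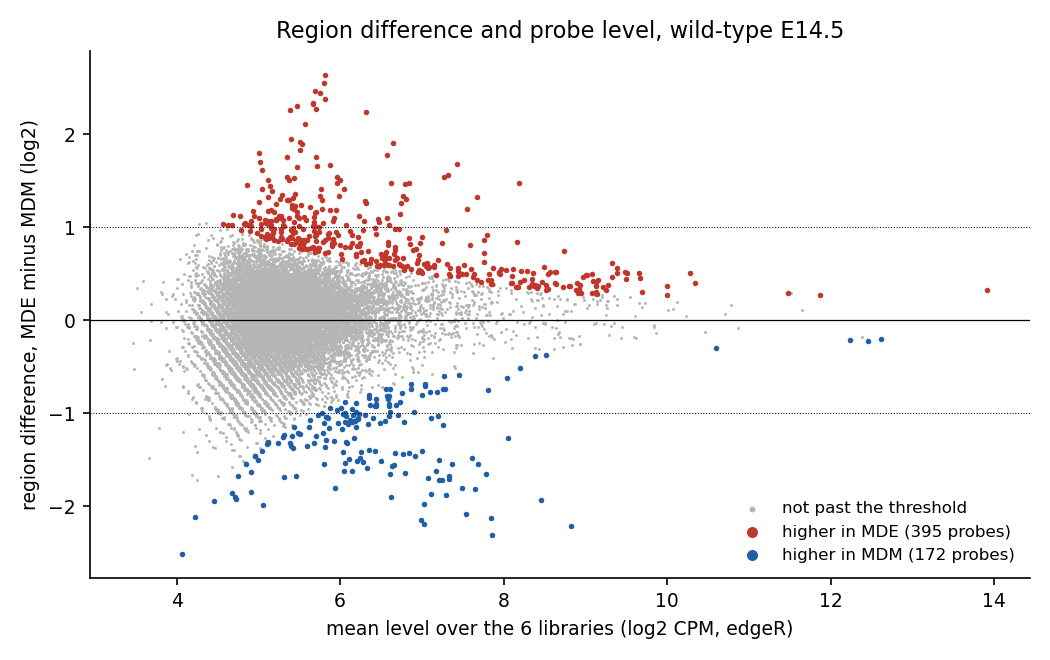
Each point is 1 of the 20174 tested probes, placed by its mean level over the 6 libraries (log2 CPM) and its region difference (log2, MDE minus MDM), with red for the 395 probes higher in MDE, blue for the 172 higher in MDM, grey for the rest and dotted lines at a 2-fold difference. Bright probes were called at small differences, while dim probes needed differences near 2-fold.

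The balance between the directions and the number of calls both moved with the scaling, the tool and the embryos used. MDE was the higher region in 69.7% of calls under TMM and in 44.1% with upper-quartile scaling (220 higher in MDE and 279 higher in MDM), which lowered the median difference of all probes to -0.12. In limma-voom the share was 84.1% (851 and 161). In limma on the 12062 probes bright enough it was 48.3% without background subtraction (238 and 255) and 24.1% after it (154 and 486). Both of these runs also centred each library on its median. The parts of tool, probes, scaling and subtraction in these shares were not tested separately. DESeq2 called 223 probes and limma-voom 1012. With every MDM library thinned at random to the total of its MDE library, a median of 303 probes passed over 10 draws (283 to 350, from 8137 to 8239 probes tested) and 58.3% of them were higher in MDE. Without embryo 2 306 probes passed, and without embryo 3 288.

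The 395 probes higher in MDE were mostly well above background. Their median log2 difference was 0.85 (quartiles 0.56 and 1.09, highest 2.64), against 0.01 for all tested probes. In MDE their median level was 6.11 times background and in MDM 2.64 times. None of them was below 1.5 times background in MDE, and 238 were at 5 times background or more there, while 104 were below 1.5 times background in MDM. The difference was positive in all 3 embryos for 386 of the 395, and for 370 every MDE library lay above every MDM library. Such a separation with MDE on top was found at 2050 of all tested probes (10.2%). The 395 were chosen in these same libraries, so their signs, separation and sizes follow in part from that choice and were not tested.

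RTS0063083 had the lowest p among probes higher in MDE. Its level was 136, 265 and 251 CPM in the MDE libraries of embryos 1, 2 and 3, and 33.6, 38.3 and 36.4 CPM in their MDM libraries. All MDE values lay far above all MDM values, and embryo 1 had the lowest of each. The MDM mean of 36.1 ± 2.36 CPM was 1.41 times background and the MDE mean of 217 ± 70.6 CPM was 9.78 times background (SD, n = 3). The log2 difference was 2.64 (SE 0.17) with an adjusted p of 1.45e-50 in edgeR's quasi-likelihood test, a 6.23-fold difference that rested on 23, 78 and 60 counts in MDE. After background subtraction in limma the log2 difference was 3.68 (SE 0.34). The background-subtracted fits here and below also centred each library on its median, and these steps were not tested separately.

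RTS0066019 was bright in both layers. It was measured at 852, 584 and 484 CPM in MDE and at 253, 227 and 194 CPM in MDM. The groups did not overlap, and embryo 1 was highest and embryo 3 lowest in both regions. The means were 640 ± 190 and 225 ± 29.6 CPM (SD, n = 3), or 28.8 and 8.77 times background. The log2 difference was 1.47 (SE 0.10, adjusted p = 3.06e-48, same test). In limma it was 1.13 (SE 0.13) after background subtraction and centring, and 1.38 (SE 0.11) with centring but no subtraction.

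In edgeR under TMM the 172 probes higher in MDM were fewer, with larger differences and lower levels. The order of the 2 counts depended on the scaling and tool, as given above, and dim probes needed larger differences to be called. Their median log2 difference was -1.22 (quartiles -1.54 and -0.98, lowest -2.51). Their median level was 3.28 times background in MDM and 1.63 times in MDE. In MDE 73 of them were below 1.5 times background, including 37 at or below background, and 47 were at 5 times background or more in MDM. The difference was negative in all 3 embryos for all 172, and for 168 every MDM library lay above every MDE library. Such a separation was found at 2012 of all tested probes (9.97%). Here too the signs, separation and sizes follow in part from how the probes were chosen. For the 18 that were below 1.5 times background in MDM as well, both levels were near background.

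RTS0064427 had the lowest p of all tested probes. Its level was 112, 102 and 125 CPM in MDE and 730, 392 and 525 CPM in MDM. The MDM libraries differed among themselves, with embryo 1 highest and embryo 2 lowest, but the lowest of them was still well above every MDE library. The means were 113 ± 11.7 and 549 ± 170 CPM (SD, n = 3), or 5.10 and 21.4 times background, and the log2 difference was -2.20 (SE 0.14) with an adjusted p of 2.18e-55 in edgeR. Without the embryo block the difference was -2.28 (SE 0.41) and no longer passed (adjusted p = 0.0762 in the same tool). It was -2.95 (SE 0.16) after background subtraction in limma.

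RTS0068460 showed the same direction with less spread in MDM. It was measured at 88.7, 109 and 121 CPM in MDE and at 378, 468 and 374 CPM in MDM. No MDE library came near the lowest MDM library. The means were 106 ± 16.3 and 407 ± 53.3 CPM (SD, n = 3), or 4.78 and 15.9 times background, and the log2 difference was -1.93 (SE 0.14, adjusted p = 1.87e-38, same test), and after background subtraction in limma -2.66 (SE 0.17). In these captured areas, fewer cells of a type and less RNA per cell cannot be told apart.

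**Figure D2:**
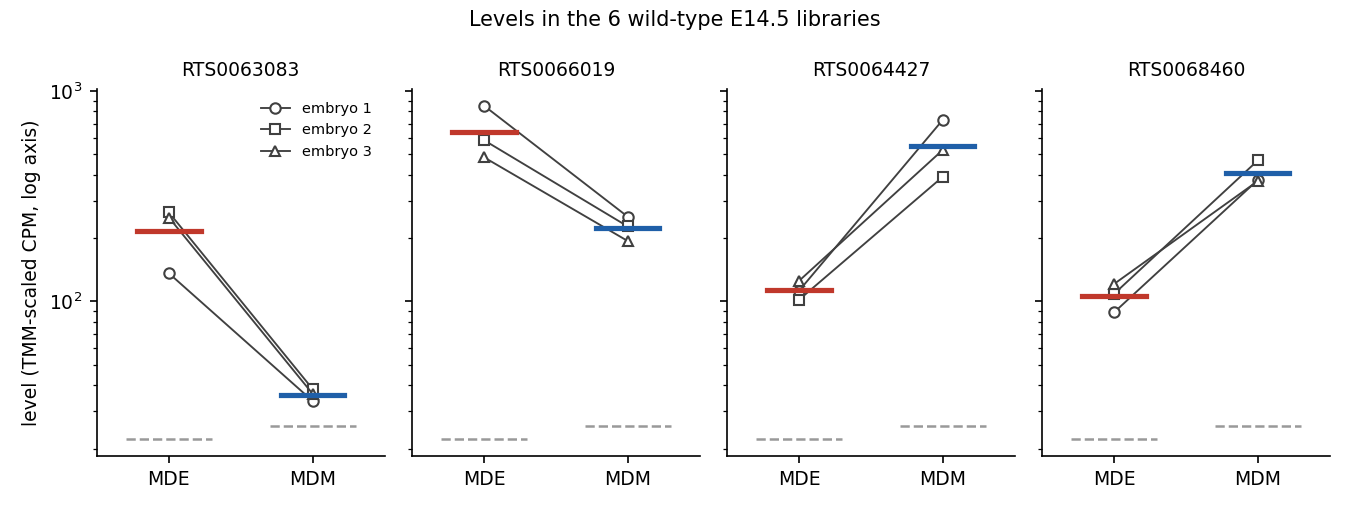
Levels (TMM-scaled CPM, log axis) of the 4 named probes in the 6 libraries, with a marker shape for each embryo, a line joining its MDE and MDM value, a coloured bar at the mean of 3 and a dashed line at the region's background. RTS0063083 and RTS0066019 were lower in MDM than in MDE and RTS0064427 and RTS0068460 higher in every embryo, and RTS0063083 in MDM lay just above background.

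Calls were concentrated among bright probes. The tested probes were split into 5 classes of 4034 or 4035 by mean level, with median levels from 23.9 CPM in the dimmest class to 68.5 CPM in the brightest. The share called rose from 0.372% in the dimmest class through 0.620%, 1.19% and 2.13% to 9.74% in the brightest, which held 69.3% of all calls. From the dimmest to the brightest class, 8, 17, 43, 72 and 255 probes were higher in MDE and 7, 8, 5, 14 and 138 higher in MDM.

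Precision changed with level too. The median SE of a log2 difference was 0.38 in the dimmest class and 0.22 in the brightest, where the median probe had 17 counts per MDE library against 5. The smallest called difference was 0.97 (log2) in the dimmest class and 0.20 in the brightest. The median difference was -0.02 in the dimmest class and 0.09 in the brightest.

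**Figure D3:**
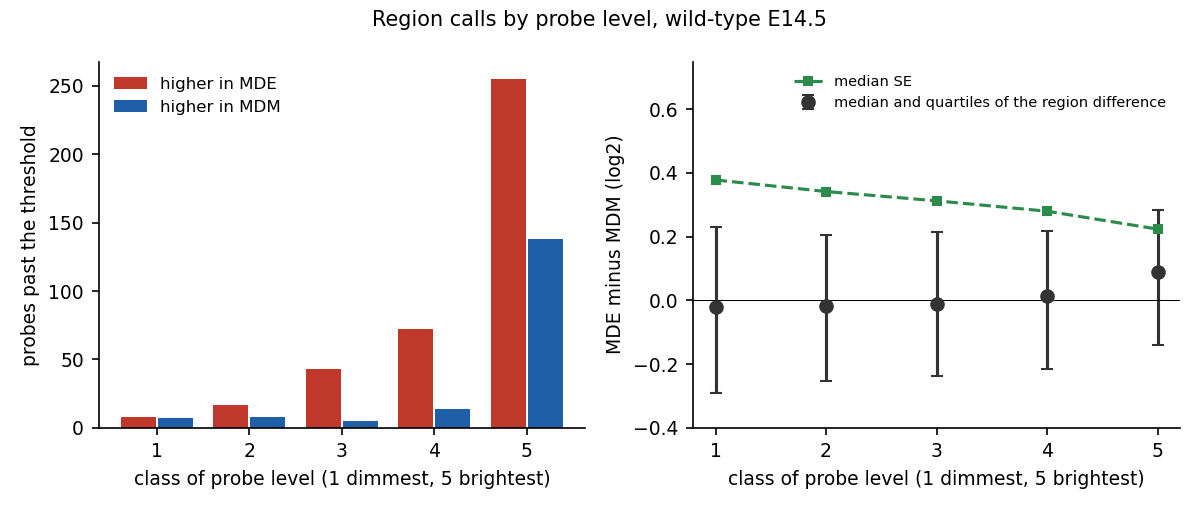
Left, number of probes called higher in MDE (red) and in MDM (blue) in the 5 classes of probe level; right, median region difference with its quartiles (dots and bars, log2) and median SE (green, log2) in the same classes. The brightest class held 255 and 138 of the calls and had a median SE of 0.22.

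The called probes took up a modest part of each library. The 395 probes higher in MDE received 11.5%, 10.6% and 10.9% of the counts in MDE and 7.87%, 7.62% and 7.54% in MDM. The 172 probes higher in MDM received 2.43%, 2.36% and 2.38% in MDE and 3.94%, 3.71% and 3.74% in MDM. Neither set overlapped between the regions, which follows from how the sets were chosen and was not tested.

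Signal was slightly more concentrated in MDE. The 1009 probes brightest over these 6 libraries (5% of the panel) received 27.9% ± 1.25 of the counts in MDE and 25.7% ± 0.771 in MDM (SD, n = 3). The difference was 2.19 percentage points (SD 0.549), between 1.56 and 2.59, and MDE was higher in all 3 embryos. With 3 pairs the exact two-sided sign-flip test cannot go below its value here, p = 0.25. The part of this contrast and of the depth in the region calls was not tested beyond the thinning and the background subtraction above.

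The region differences of single probes agreed only partly between embryos. Across the 11967 probes at 1.5 times background or more in either region, the Pearson correlation of the log2 difference was 0.24 between embryos 1 and 2, 0.22 between 1 and 3, and 0.28 between 2 and 3; these points share the panel and, within an embryo, 2 libraries, and probes are not independent replicates. The median SD of a probe's difference between the 3 embryos was 0.42 (log2) over all tested probes, 0.25 over the probes higher in MDE and 0.42 over those higher in MDM. With 3 embryos the fit had 2 residual degrees of freedom, and for 19670 of the 20174 probes edgeR replaced the probe's own spread by the trend over all probes, so the p-values rest mainly on a spread shared across the panel.

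The probes called at wild-type E14.5 leaned the same way in embryos that had no part in the call. Of the 395 probes higher in MDE, 343 were also higher in MDE in the 3 wild-type E13.5 embryos (86.8%, median log2 difference 0.44) and 383 in the 3 Wnt7a-null E14.5 embryos (97.0%, median 0.40). Of the 172 higher in MDM, 153 were also higher in MDM at wild-type E13.5 (89.0%, median -0.57) and 161 at null E14.5 (93.6%, median -0.38). Over all probes tested in those embryos, 50.1% and 50.3% of differences were positive, with medians of 0.00. These libraries shared the slide and the probe panel with those of wild-type E14.5, but no embryo. The shares are given as a description with no test.

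In their own fits, wild-type E13.5 embryos had 157 probes higher in MDE (0.78% of those tested) and 57 higher in MDM (0.283%), and null E14.5 embryos had 408 (2.02%) and 137 (0.679%). The wild-type E14.5 and wild-type E13.5 lists shared 102 probes higher in MDE (25.8% of the 395 and 65.0% of the 157) and 32 higher in MDM (18.6% of the 172 and 56.1% of the 57). The wild-type and null E14.5 lists shared 214 (54.2% of the 395 and 52.5% of the 408) and 75 (43.6% of the 172 and 54.7% of the 137). No probe called at wild-type E14.5 was called in the opposite direction in either. The called probes had smaller medians in these embryos than in those that chose them, 0.44 and 0.40 against 0.85 for the MDE side.

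RTS0066019, RTS0064427 and RTS0068460 were called in the same direction in all 4 kinds of embryo. For RTS0066019 the log2 difference was 1.29 (SE 0.13) at wild-type E13.5 and 1.40 (SE 0.11) at null E14.5. For RTS0064427 it was -1.59 (SE 0.17) and -1.47 (SE 0.12). RTS0068460 gave -1.81 (SE 0.32) and -1.22 (SE 0.13), but its wild-type E13.5 embryos differed widely. Their differences in log2 CPM were -0.35, -2.82 and -2.72 (SD 1.40). RTS0063083 was called at null E14.5 with 0.85 (SE 0.11) but not at wild-type E13.5, where it was 0.30 (SE 0.29).

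**Figure D4:**
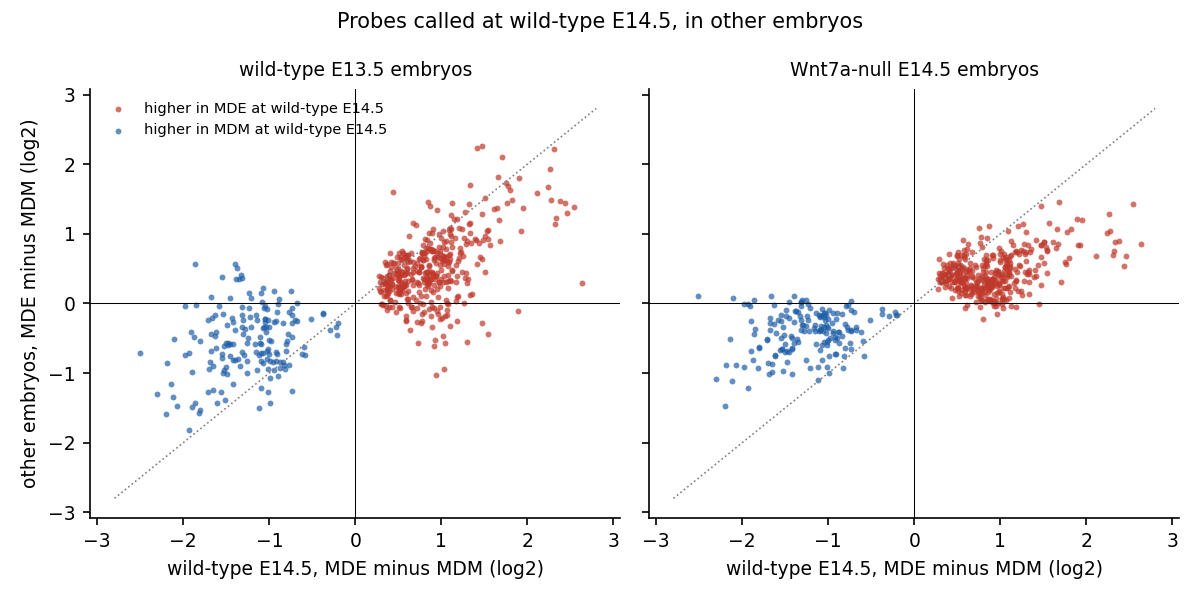
Region difference (log2, MDE minus MDM) of the 567 probes called at wild-type E14.5, on the x axis in the embryos that chose them and on the y axis in wild-type E13.5 (left) and Wnt7a-null E14.5 embryos (right), with the dotted line at equality. Of the 395 red probes 343 and 383 lay above 0, and of the 172 blue probes 153 and 161 lay below 0, mostly nearer to 0 than the dotted line.

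The region difference itself differed between the stages at few probes. Between wild-type E14.5 and wild-type E13.5 it differed at 9 of 20175 probes (0.0446%) in a fit over all 24 libraries, 7 more MDE-sided at E14.5 and 2 more MDM-sided, and 1162 probes had an unadjusted p under 0.05. Without the embryo block 4 passed. DESeq2 called 3. Background-subtracted limma called 33 with the balance turned, 3 more MDE-sided and 30 more MDM-sided. It tested only the 12062 probes at 1.5 times background or more in a region of wild-type E14.5. Over these the median difference of differences was -0.13, against -0.005 over all probes in edgeR. Leaving out 1 embryo gave 4 (without wild-type E14.5 embryo 2) to 16 (without wild-type E13.5 embryo 3), with 5 without wild-type E13.5 embryo 2 and 14 without wild-type E14.5 embryo 1. Over the 7 the median log2 difference was 1.48 at E14.5 and -0.29 at E13.5, and over the 2 it was -1.55 and 0.05; these probes were chosen for this gap.

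RTS0073768 was MDE-sided at wild-type E14.5 and not at wild-type E13.5. At E14.5 it was measured at 360, 395 and 361 CPM in MDE and at 175, 117 and 113 CPM in MDM, scaled over all 24 libraries. At E13.5 it was at 171, 103 and 196 CPM in MDE and at 178, 238 and 244 CPM in MDM. MDE lay above MDM in every E14.5 embryo and below it in every E13.5 embryo. The difference of differences was 1.97 (log2, SE 0.22), with an adjusted p of 1.10e-13 in edgeR. In null embryos the same probe gave 0.77 (SE 0.12) at E14.5 and -0.41 (SE 0.18) at E13.5.

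RTS0063083, the probe with the lowest p on the MDE side above, was also more MDE-sided at E14.5. At wild-type E13.5 it was at 50.5, 54.8 and 82.9 CPM in MDE and at 49.7, 52.7 and 42.5 CPM in MDM, against 145, 278 and 267 CPM and 36.1, 41.1 and 38.9 CPM at E14.5. All MDE values at E14.5 exceeded all those at E13.5, whereas the MDM means were 1.70 and 1.41 times background at E13.5 and E14.5. The difference of differences was 2.33 (SE 0.30, adjusted p = 4.98e-10, same test), or 3.07 (SE 0.72) after background subtraction in limma, and the MDE values at E13.5 rested on 13, 9 and 11 counts.

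RTS0061959 and RTS0064439 were more MDM-sided at E14.5. RTS0061959 was at 25.3, 28.5 and 49.0 CPM in MDE and at 101, 89.7 and 88.9 CPM in MDM at E14.5, and at 97.0, 73.0 and 75.3 CPM and 49.7, 63.3 and 98.2 CPM at E13.5. Its E14.5 regions did not overlap and its E13.5 regions did, and the MDE values at E14.5 rested on 4, 8 and 11 counts. RTS0064439 was at 50.5, 53.4 and 53.5 CPM in MDE and at 209, 158 and 173 CPM in MDM at E14.5, and at 62.1, 97.4 and 188 CPM and 99.3, 99.7 and 198 CPM at E13.5. Its MDE and MDM values at E14.5 lay far apart, and those at E13.5 overlapped. The differences of differences were -1.75 (SE 0.38, adjusted p = 0.0171) and -1.48 (SE 0.34, adjusted p = 0.0318) in edgeR's test. With differences of similar size, neither passed without the embryo block (-1.70 and -1.46, adjusted p = 0.418 and 0.674), in limma-voom (-1.77 and -1.45, adjusted p = 0.125 and 0.268) or without wild-type E14.5 embryo 2 (-1.60 for both, adjusted p = 0.287 and 0.190). After background subtraction both passed in limma with larger differences (-3.69 and -2.36, adjusted p = 0.000617 and 0.000830).

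The genotypes were compared at E14.5 in the same way. The region difference differed between wild-type and Wnt7a-null embryos at 46 of 20175 probes (0.228%), 31 more MDE-sided and 15 more MDM-sided in wild-type, and 1262 probes had an unadjusted p under 0.05. This comparison, like the one between stages, uses the wild-type E14.5 libraries. The median log2 difference of the 31 was 1.71 in wild-type and 0.57 in null, and that of the 15 was -1.72 and -0.51; these probes were chosen for this gap, so it is not tested further.

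The libraries of the genotypes also differed in the share of counts on the same probes. The 1009 probes brightest in wild-type E14.5 received 26.7% to 29.1% of the counts in wild-type E14.5 MDE and 25.1% to 26.6% in MDM. In null E14.5 they received 15.9% to 19.3% in MDE and 13.8% to 18.3% in MDM. In wild-type E13.5 they received 20.2% to 27.2% and 18.7% to 26.2%. The set was chosen in wild-type E14.5, so a lower share elsewhere does not show that signal there lay on dim probes. The MDE library of null embryo 2 also stood apart in depth, with 2618342 counts and 24.1 aligned reads per count. After subtraction of each library's background, 5 probes differed between the genotypes in limma (1 more MDE-sided and 4 more MDM-sided in wild-type). Without the embryo block 17 did (16 and 1), and upper-quartile scaling gave 45 (24 and 21). There were 15 in DESeq2 and 15 (6 to 16) over 3 draws of thinned MDM libraries. Leaving out null embryo 2, wild-type embryo 1 or wild-type embryo 3 gave 23 each, leaving out wild-type embryo 2 gave 24 and leaving out null embryo 3 gave 30. The part of the signal contrast in the genotype difference was not tested beyond these fits.

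RTS0080102 had the lowest p on the MDE side. In wild-type E14.5 embryos it was at 272, 178 and 214 CPM in MDE and at 42.1, 36.9 and 40.9 CPM in MDM. In null E14.5 embryos it was at 69.7, 85.7 and 83.3 CPM and at 52.4, 58.5 and 55.9 CPM. The null MDE libraries lay below all wild-type MDE libraries and only a little above their own MDM. The difference of differences was 1.89 (SE 0.20) with an adjusted p of 3.95e-15 in edgeR, and it passed in each of the 15 alternatives, with differences from 1.79 to 2.70 and an adjusted p of at most 0.0359.

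RTS0063083 also differed between the genotypes. In null E14.5 embryos it was at 101, 71.0 and 104 CPM in MDE and at 42.7, 45.9 and 45.4 CPM in MDM. Its null MDE libraries lay below all 3 wild-type ones, and its MDM libraries were near background in both genotypes, at 1.41 and 1.42 times. The difference of differences was 1.76 (SE 0.19, adjusted p = 2.37e-14, same test). After background subtraction it was 1.69 (SE 0.72) and did not pass in limma (adjusted p = 0.706).

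RTS0068500 and RTS0070870 were more MDM-sided in wild-type. RTS0068500 was at 44.2, 53.4 and 80.2 CPM in MDE and at 125, 249 and 179 CPM in MDM of wild-type embryos, and at 44.4, 45.3 and 42.4 CPM and 42.9, 40.0 and 45.3 CPM in null embryos. All null values lay near background, measured on the probes dimmest in wild-type E14.5, at 1.42 times in MDE and 1.36 times in MDM. Every wild-type E14.5 MDM library lay above them. At wild-type E13.5 RTS0068500 was near background as well, at 1.01 times in MDE and 1.21 times in MDM. RTS0070870 was at 44.2, 28.5 and 31.2 CPM in MDE and at 196, 143 and 121 CPM in MDM of wild-type embryos, and at 34.8, 41.1 and 51.5 CPM and 56.2, 63.8 and 52.3 CPM in null embryos. Its MDE values overlapped between the genotypes and its MDM values did not. The differences of differences were -1.79 (SE 0.26, adjusted p = 4.36e-08) and -1.66 (SE 0.31, adjusted p = 0.000290) in edgeR's test. After background subtraction the differences in limma were larger, at -2.68 (SE 0.77) and -2.73 (SE 0.70), but did not pass (adjusted p = 0.389 and 0.197). In wild-type MDE, RTS0070870 averaged 1.47 times background, so little signal was left there after subtraction. RTS0070870 also missed the threshold without the embryo block, at -1.76 (SE 0.42, adjusted p = 0.0634).

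**Figure D5:**
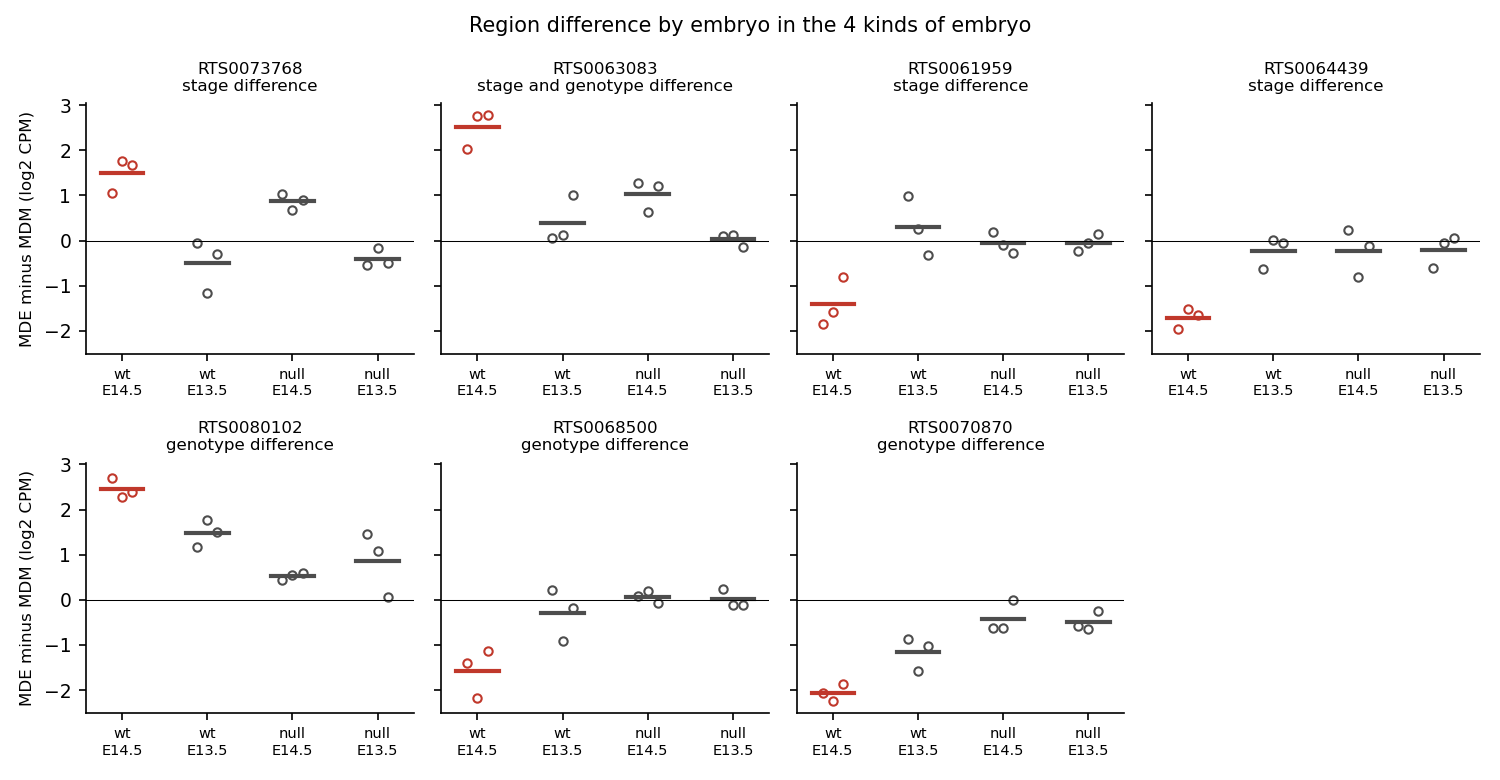
Region difference (MDE minus MDM, log2 CPM) of the 7 probes named for the stage or genotype difference, 1 point per embryo and a bar at the mean of 3, in wild-type E14.5 (red) and the other 3 kinds of embryo (grey). The means of RTS0080102, RTS0070870 and RTS0064439 kept their side in all 4 kinds of embryo. That of RTS0063083 was above 0 in all 4, but only 0.03 at null E13.5, where its edgeR fit gave -0.09 (SE 0.30). The mean of RTS0068500 lay near 0 in null embryos and at -0.28 at wild-type E13.5.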

How the data were processed

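The deposited values were counts per probe, whole numbers with no normalisation. Per the file headers they came from version 2.3.5 of the GeoMx NGS Pipeline, and the submitters' processing notes name the build GRCm38.p6. Totals were below the number of aligned reads; how reads were collapsed is not given in the sources used here. In each file, probes not listed were set to 0. Titles gave groups and embryos; MDE and MDM of an embryo are the same animal, which is the pairing used as a block. Deviations from the region mean correlated at 0.02, 0.01 and 0.02 within embryos 1, 2 and 3, and between -0.03 and 0.01 across different embryos. With median counts per probe of 6 to 11 in MDE, counting error can hold such correlations near 0, so they cannot decide about pairing. The block rests on the design, and without it 474 region calls remained of 567.

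Counts were tested in edgeR 4.0.16 (R 4.3.3): TMM, filterByExpr (minimum count 10, total 15), robust quasi-likelihood fit, adjusted p under 0.05. The region difference used the 6 wild-type E14.5 libraries, stage and genotype differences all 24. SE is the size of the log2 difference over the square root of F. In edgeR it draws on the spread shared across the panel and is not a spread between embryos alone. Levels of 1 probe only are compared. Named are, per comparison, at most 2 probes in each direction with the lowest p among called probes whose paired difference (for stage and genotype, minus the other group's mean) has the sign of the call in all 3 wild-type E14.5 embryos. Members, tests and naming rule were chosen with earlier results of these data known.

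Alternatives were upper-quartile scaling (75th percentile), DESeq2 1.42.0, no filter or a minimum of 20, and no block. Further ones were limma 3.58.1 (voom, and log2 signal with and without subtracted background), other sets of libraries, thinning and leaving out embryos. Log2 signal had a floor of 0.25 of background after subtraction, or 0.25 of background added without it. Each library was then centred on its median. Probes at 1.5 times background or more in a region of wild-type E14.5 were used there, and the background probes were those dimmest in wild-type E14.5. For the stage and genotype differences, background subtraction, the 12-library fits and leaving out embryos of the other group were added after seeing the data. The steps were tested on simulated data. Tests of samples and figures used scipy 1.17.1, pandas 2.3.3, numpy 2.4.6 and matplotlib 3.10.9 in Python 3.11.15.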

Additional observations from a re-analysis of the deposited data

Results flagged for a closer look

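The region difference (MDE minus MDM) of 7 probes differed between wild-type E14.5 and another kind of embryo by a test of the difference itself, edgeR's interaction contrast over 24 libraries. Against wild-type E13.5 the difference of differences (log2) was 1.97 for RTS0073768, 2.33 for RTS0063083, -1.75 for RTS0061959 and -1.48 for RTS0064439. Against Wnt7a-null E14.5 it was 1.89 for RTS0080102, 1.76 for RTS0063083, -1.79 for RTS0068500 and -1.66 for RTS0070870. RTS0063083 stood in both lists, and these comparisons share the wild-type E14.5 libraries. RTS0061959 passed in 7 of the 14 alternatives that gave it an adjusted p, as DESeq2 gave none, and RTS0064439 in 6 of 15. RTS0073768 and RTS0063083 passed in all 15 for stage, and RTS0080102 in all 15 for genotype.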

How the results depend on the processing

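The 567 region calls became 223 with DESeq2, 1012 with limma-voom, 303 with thinned MDM libraries and 288 to 437 with an embryo left out; without the replicate block 474 remained. The 257 calls over 2-fold became 158 with DESeq2, 460 after background subtraction and 209 to 234 with an embryo left out. Of the 567, 136 (100 higher in MDE, 36 higher in MDM) were called in the same direction in each of 13 alternatives, and 92 in each thinning draw as well. The 9 stage differences became 3 with DESeq2, 4 without the replicate block, 3 with limma-voom, 33 after background subtraction, 17 in the 12 wild-type libraries, 4 with thinning and 4 to 16 with an embryo left out. The 46 genotype differences became 15, 17 and 5 with DESeq2, without the replicate block and after background subtraction, 15 with thinning and 23 to 43 with an embryo left out; 1 of them passed in all alternatives. On the brightest 1% of probes the signal share differed by 1.05 percentage points. No named probe changed direction in the alternatives that gave it an adjusted p. DESeq2 and limma-voom estimate spread differently, and leaving out an embryo leaves fewer samples. With thinning, a median of 515.5 of the 567 region calls were still tested and 267.5 were kept in the same direction. All 9 stage and 46 genotype calls were still tested, and medians of 3 and 11 were kept. The causes of these changes were not tested. Depth limits mainly MDE, at a median of 6 to 11 counts per probe.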

Other observations

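Neighbouring identifiers were called together at a higher rate than the panel as a whole. Of the 395 probes higher in MDE, 374 had a probe with the next identifier number in the panel, and for 30 of these (8.02%) that probe was also called higher in MDE, against 1.96% of all tested probes. Of the 172 higher in MDM, 166 had such a neighbour and 14 of these neighbours (8.43%) were also called higher in MDM, against 0.853% of all tested probes. The rate over all tested probes is not matched for level. In the brightest class of 4035 probes, 255 were called higher in MDE and 138 higher in MDM, and the levels of the neighbours were not compared. What orders the identifiers is not given in the sources used here, and no test was made.

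The Wnt7a-null E13.5 embryos showed the same leaning. Of the 395 probes higher in MDE at wild-type E14.5, 343 were higher in MDE there (86.8%, median log2 difference 0.35), and of the 172 higher in MDM, 149 were higher in MDM (86.6%, median -0.41). With the MDM libraries of the other embryos thinned once to their MDE totals, the probes that could still be tested kept the direction in 85.7% and 91.5% of cases at wild-type E13.5 (273 and 94 tested) and in 94.9% and 94.8% at null E14.5 (395 and 172 tested).

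The share of counts on the called probes was measured outside wild-type E14.5 too. The 395 probes higher in MDE received 7.89% ± 1.26 of the counts in wild-type E13.5 MDE and 6.00% ± 0.303 in null E14.5 MDE, against 11.0% ± 0.453 in wild-type E14.5 MDE (SD, n = 3). In MDM they received 6.02% ± 1.12, 4.53% ± 0.380 and 7.68% ± 0.173. The set was chosen in wild-type E14.5, so its share there is not compared by a test. The 172 probes higher in MDM received 3.26% ± 0.574, 2.78% ± 0.528 and 3.80% ± 0.125 in the same MDM groups.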
